A study of Macaca fascicularis with 9 samples.

Results

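Cluster 14 of the oligodendrocyte precursor cells (OPCs) held 287 of the 79994 single nuclei profiled from cynomolgus monkey thalamus, and 287 of the 6233 nuclei that the authors named OPCs. Its members are all nuclei with the deposited cell type OPCs and the deposited cluster number 14. The other OPC nuclei fell into cluster 4, with 5580 nuclei, and cluster 13, with 366. The study compared 2 ways of delivering an antisense oligonucleotide (ASO), a short synthetic strand that pairs with a target RNA, against MALAT1, an abundant noncoding RNA of the nucleus. All 9 animals were females, with 3 in each group. Saline animals had 4 intravenous doses of saline. ASO animals had 1 intrathecal dose of 4 mg of the MALAT1 ASO, given into the cerebrospinal fluid. OTV animals had 4 intravenous doses of OTV:MALAT1 at 30 mpk, an oligonucleotide coupled to a vehicle that binds the transferrin receptor. The thalamus was collected 2 weeks after dosing ended in every group. The ASO group therefore differed from the saline group in route and number of doses as well as in agent, and these cannot be told apart. Nuclei were sorted by DNA stain and counted with 10x Genomics 3′ droplet libraries, and each animal gave 1 library.

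OPCs are the dividing glial cells of the adult brain that give rise to oligodendrocytes, the cells that make myelin. They carry the growth factor receptor PDGFRA and the proteoglycan CSPG4, and unlike other glia they receive synaptic input from neurons. On the way to an oligodendrocyte they pass a committed stage marked by GPR17, BCAS1 and ENPP6, after which the myelin genes rise.

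Library size differed between animals, from 2956 to 11992 nuclei and from 19981249 to 98850459 unique molecular identifiers (UMIs, the count of captured RNA molecules). OTV replicate 3 stood apart for its low depth, with a median of 2579 UMIs per nucleus against 4741.5 to 7791 in the other libraries. Cell barcodes shared by more than 1 library numbered 760, and 5 nuclei of cluster 14 carried one. Cluster 14 held 607179 UMIs in all, so a gene with 1 UMI in the whole cluster is at 1.65 CPM (UMI counts per 1000000 UMIs of the same nuclei). Values below are CPM of UMIs summed over the nuclei of a cluster in an animal, unless another unit is named.

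The nuclei of cluster 14 were spread unevenly over the animals. Saline replicates 1, 2 and 3 gave 14, 16 and 44 nuclei, ASO replicates gave 13, 7 and 84, and OTV replicates gave 103, 0 and 6. OTV replicate 1 thus held 35.9% of the cluster, ASO replicate 3 held 29.3% and saline replicate 3 held 15.3%. As a share of the animal's OPC nuclei, the cluster made up 1.80%, 1.71% and 7.45% in saline, 1.41%, 1.43% and 9.29% in ASO, and 14.03%, 0% and 1.10% in OTV. One animal of each group was high and the other 2 were low, so the 3 groups overlapped over most of their range. The exact binomial 95% intervals of the 3 high animals ran from 5.46% to 9.87% in saline replicate 3, from 7.48% to 11.4% in ASO replicate 3 and from 11.6% to 16.8% in OTV replicate 1. The upper bounds of the other 6 animals were 3.00% or lower, so the split among animals exceeded counting error. For the 0 of 337 OPC nuclei in OTV replicate 2 the exact upper bound was 1.09%. Group means were 3.65% ± 3.29 (SD, n = 3) in saline, 4.04% ± 4.55 in ASO and 5.05% ± 7.80 in OTV. The SD was about as large as the mean or larger in each group. The planned test of the share over the 3 groups was not made, because genes that set the cluster apart also differed between treatments. Of the 20 genes with the largest excess over cluster 4, edgeR's quasi-likelihood test in all OPC nuclei called 13 between OTV and saline, where it called 22.1% of all genes, and 11 between OTV and ASO, where it called 27.2%. Between ASO and saline it called 0 of the 20 (8 at an unadjusted p under 0.05) and 0.262% of all genes, so that reason applies to the contrasts with OTV.

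The nuclei of cluster 14 held little RNA. The median was 1847 UMIs and 1219 genes per nucleus, against 7475.5 UMIs and 3036 genes in cluster 4 and 10978.5 UMIs in cluster 13. The largest nucleus of the cluster held 5871 UMIs, less than the median of cluster 4. The median of cluster 14 in saline replicates 1, 2 and 3 was 1514.5, 1901 and 3048.5 UMIs. It was 1511, 1579 and 1427.5 in ASO replicates and 2255 and 1126.5 in OTV replicates 1 and 3. Within each of these 8 animals the median of cluster 14 was below that of cluster 4, at 0.152 to 0.505 of it. It was also below the median of all nuclei of the library, at 20.3% to 27.7% of it in 5 animals and at 36.9%, 43.7% and 64.3% in OTV replicate 1, OTV replicate 3 and saline replicate 3.

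**Figure D1:**
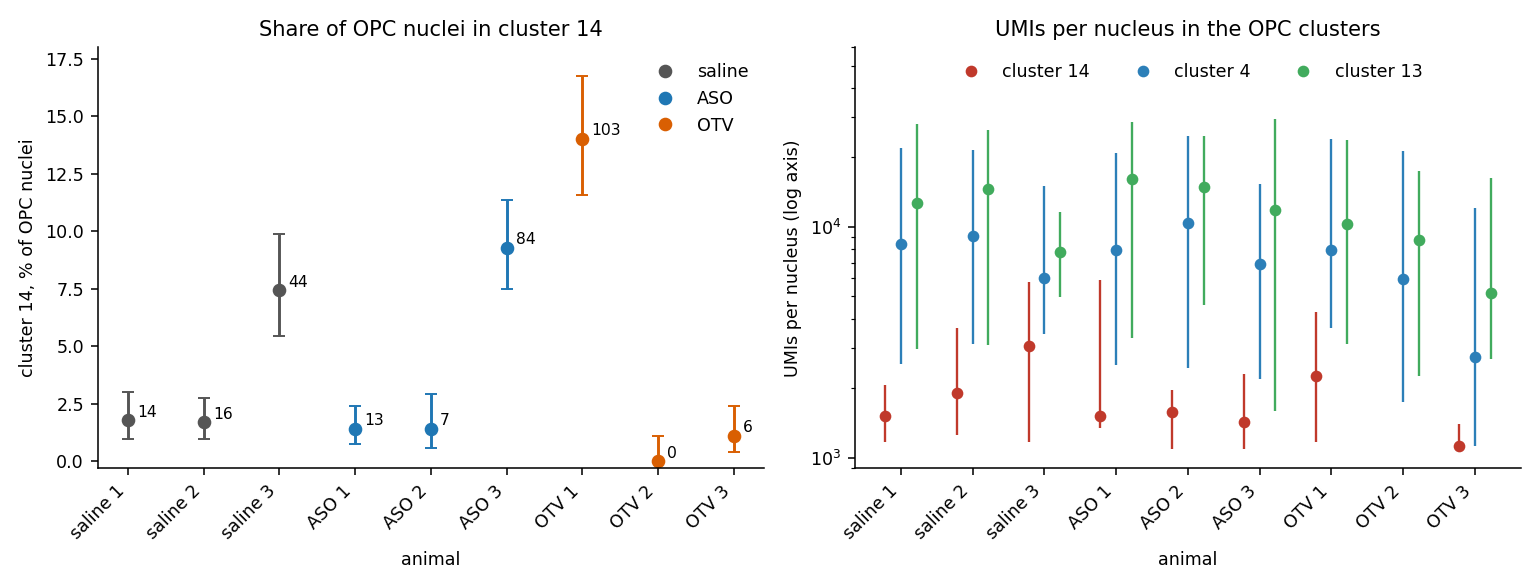
Left, cluster 14 as a percentage of the OPC nuclei of each animal, with exact binomial 95% intervals and the number of cluster 14 nuclei beside each point; saline 3, ASO 3 and OTV 1 stand above the other 6 animals. Right, UMIs per nucleus on a log axis in OPC clusters 14, 4 and 13 of each animal, with the median as a point and the lowest to highest nucleus as a line; cluster 14 has the lowest median in each of the 8 animals that have it.

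Nuclei with at most 3000 UMIs made up 82.9% of cluster 14, 5.82% of cluster 4 and 1.91% of cluster 13. In most libraries the cluster took in nearly all shallow OPC nuclei. Of the OPC nuclei with at most 2000 UMIs, it held 13 of 13, 9 of 9 and 5 of 5 in saline, 12 of 12, 7 of 7 and 77 of 78 in ASO, and 36 of 36 in OTV replicate 1. The remaining OTV libraries differed: the cluster held 0 of 6 such nuclei in OTV replicate 2 and 6 of 138 in OTV replicate 3, where 132 of them were in cluster 4. ASO replicate 3 and OTV replicate 1, the libraries with most nuclei of cluster 14, had 100 and 79 OPC nuclei with at most 3000 UMIs, of which 84 and 79 were in the cluster. Saline replicate 3, with 44 nuclei in the cluster, had 22, and OTV replicate 3, with 6, had 285. A fixed limit does not mean the same in each library. The median of cluster 4 was 6035 UMIs in saline replicate 3 and 2724.5 in OTV replicate 3. The part of depth in the uneven share was not tested.

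The authors' coarser clusterings did not keep the cluster apart. At resolution 0.1, 286 of the 287 nuclei lay with cluster 4. At resolution 0.2 the cluster split: 82 nuclei (28.6%) joined cluster 4, and 205 (71.4%) joined a cluster of 723 nuclei that also took in 517 nuclei of oligodendrocyte cluster 8, another cluster of low UMI counts. The 82 nuclei had a median of 3245 UMIs and the 205 a median of 1601. To compare them at equal depth, each nucleus was thinned at random to 1000 UMIs. The summed OPC identity list then stood at 32.5 UMIs per 1000 in the 82 and 32.7 in the 205, and the mature oligodendrocyte list at 2.33 and 3.61. The 205 nuclei that were placed beside oligodendrocytes thus carried as much OPC RNA as the 82, and myelin RNA far below the 18.6 UMIs per 1000 of oligodendrocytes.

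The doublet score, the authors' measure of how far a nucleus resembles a mixture of cells, was low in the cluster. Its median was 0.000923 in cluster 14, 0.000851 in cluster 4 and 0.0168 in cluster 13. A score over 0.1 was found in 8 of the 287 nuclei (2.79%, exact 95% interval 1.21 to 5.42), in 0.502% of cluster 4 and in 10.9% of cluster 13. Of these 8 nuclei, 5 came from saline replicate 3, 2 from OTV replicate 1 and 1 from saline replicate 2. They had a median of 3709.5 UMIs, and at 1000 UMIs they held 22.4 UMIs of the OPC identity list and 5.25 of the mature oligodendrocyte list, against 32.9 and 3.19 in the other 279. The nuclei with high scores were therefore few, deeper than the rest, and richer in oligodendrocyte RNA. Saline replicate 3 also had the deepest cluster 14 nuclei, with a median of 3048.5 UMIs, so score, depth and animal cannot be told apart. It held 21 of the 28 nuclei of cluster 4 with a score over 0.1. All deposited nuclei are called singlets by the authors.

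The markers fitted the OPC name. PTPRZ1, a receptor tyrosine phosphatase of glial precursors that astrocytes also express, had a UMI in 96.2% of cluster 14 nuclei at 1000 UMIs, in 97.6% of cluster 4 and in 53.01% of cluster 13. The share was 3.33% in oligodendrocytes, which should lack it, and 70.2% in astrocytes. TNR, the matrix glycoprotein tenascin-R, had a UMI in 68.6% of cluster 14 nuclei, 76.0% of cluster 4 and 65.6% of cluster 13, against 0.448% of oligodendrocytes. Without thinning the shares were 99.3% for PTPRZ1 and 82.6% for TNR, against 99.9% and 99.2% in the deeper cluster 4. PDGFRA, the receptor that drives OPC division, was found in 29.3% of cluster 14 and 25.3% of cluster 4 but in 2.73% of cluster 13. Among the 10 genes with the largest excess in cluster 14 over all nuclei outside it were PDGFRA, with a log2 ratio of 3.54, and MYT1, a transcription factor of the oligodendrocyte lineage, with 3.81.

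By animal, PTPRZ1 stood in cluster 14 at 5833, 5639 and 4457 CPM in saline, at 6660, 3182 and 6524 in ASO, and at 2848 and 2117 in OTV replicates 1 and 3. In the same animals cluster 4 had 4806, 3866 and 4716, then 4804, 4882 and 5049, then 3631 and 2688. Both clusters were lowest in the OTV animals, and cluster 14 lay above cluster 4 in 4 animals and below it in 4. TNR in cluster 14 was at 1250, 1620 and 1444 CPM in saline, 1021, 1000 and 1302 in ASO, and 1508 and 424 in OTV replicates 1 and 3. The value of OTV replicate 3 rests on 6 nuclei. PDGFRA was at 602, 600 and 363 CPM in saline, 449, 546 and 262 in ASO, and 257 and 141 in OTV. Cluster 13 of the same animals never exceeded 49.7 CPM of PDGFRA, so clusters 14 and 13 did not overlap for this gene as measured. The 141 CPM of OTV replicate 3 is 1 UMI.

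Animals with at least 10 cluster 14 nuclei, namely the 3 saline animals, ASO replicates 1 and 3 and OTV replicate 1, were used for the ratios that follow. Each ratio sets cluster 14 against another cluster of the same animal, as log2 of CPM plus 1. The sources used here do not name the genes behind the clustering, so every gene was treated as used in it, and these ratios describe the cluster without a test. For scale, among 8054 genes with at least 10 UMIs in cluster 14, 259 (3.22%) were higher than in cluster 4 in every one of the 6 animals and 272 (3.38%) were lower in every one. Against cluster 13 the shares were 11.8% higher and 5.31% lower.

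The summed OPC identity list, of which 18 of 20 genes are in the files, stood at 32315 CPM in cluster 14, 38447 in cluster 4 and 31287 in cluster 13, against 1270 in oligodendrocytes. Its ratio to cluster 4 had a median of −0.21 and was negative in each of the 6 animals. It ran from −0.37 in ASO replicate 1 to −0.0022 in saline replicate 2, where the 2 clusters were nearly equal. Of the 18 members of the list, 6 had a median above that of cluster 4, against 48.7% of the 8054 genes. OLIG2, a transcription factor that specifies the lineage, was higher in every animal, by a median of 0.56. Lower in every animal were SOX6, a factor that keeps precursors immature, at −0.61, PCDH15, a protocadherin, at −0.28, LUZP2 at −0.44 and MEGF11 at −0.16. The list was therefore slightly lower in cluster 14 than in cluster 4, with most members close to it.

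The committed precursor list set cluster 14 apart from cluster 13 and not from cluster 4. It summed to 3459 CPM in cluster 14, 3383 in cluster 4 and 28278 in cluster 13. Of 15 members with enough UMIs, 12 were lower than in cluster 13 in every animal. At 1000 UMIs, BCAS1, a gene of early myelinating cells, had a UMI in 50.2% of cluster 14, 45.1% of cluster 4 and 97.0% of cluster 13. GPR17, the receptor that marks committed precursors, was found in 5.92%, 3.50% and 24.6% of the 3 clusters. ENPP6, a phosphodiesterase of newly formed oligodendrocytes, was found in 1.74%, 2.46% and 59.3%.

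The genes most above cluster 13 included EHD4, with a median log2 ratio of 6.40, CREB3L1 with 5.18, KCNIP1, a potassium channel partner, with 4.94 and ETV1, a transcription factor, with 4.85. EHD4 had no UMI in cluster 13 of some animals, so its ratio depends on the pseudocount. The genes most below it included IFI44L, an interferon-induced gene, with 1 UMI in the whole of cluster 14 against 767 CPM in cluster 13, and CDH7, a cadherin, with 4 UMIs against 444 CPM. OLFML2A had 0 UMIs in cluster 14 and 250 CPM in cluster 13. Across 10006 genes, the summed profile of cluster 14 had a Pearson correlation of 0.965 with cluster 4 and 0.843 with cluster 13. The next closest was a neuron cluster with 0.765, then astrocyte cluster 12 with 0.753. These correlations are across genes, which are not independent replicates.

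Genes of mature oligodendrocytes were the group by which cluster 14 most often exceeded cluster 4. The list, with 17 of 18 genes in the files, summed to 3050 CPM in cluster 14, 1646 in cluster 4, 4770 in cluster 13 and 18930 in oligodendrocytes. In saline the list stood at 3425, 2220 and 1777 CPM in cluster 14 and at 1465, 1527 and 1364 in cluster 4. In ASO it stood at 2533, 5091 and 3786 against 1595, 1931 and 2053, and in OTV replicates 1 and 3 at 3399 and 3388 against 1629 and 1856. Cluster 14 was higher in each of these 8 animals, and over the 6 with at least 10 nuclei the median log2 ratio was 0.77, from 0.38 in saline replicate 3 to 1.22 in saline replicate 1. Of 16 members with at least 10 UMIs, 9 were higher in every animal, against 3.22% of all genes. Among them were MAG, an adhesion protein of the myelin membrane, with a median ratio of 2.16, ST18, a transcription factor, with 1.79, and TF, transferrin, with 1.78. OPALIN had 1.76, CNP, a myelin enzyme, 1.69, RNF220 1.67, MOG, a myelin surface protein, 1.24 and ERMN 0.65. In saline replicates 1 and 2 and ASO replicate 1, 1 UMI is 46.3, 30.0 and 40.9 CPM. ERMN had 1 UMI in each of these and MOG had 1, 2 and 1. MAG and OPALIN had 1 in saline replicate 2, ST18 1 in saline replicate 1 and ASO replicate 1, and CNP 1 in ASO replicate 1. The sign of such genes in these animals rests on single UMIs.

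**Figure D2:**
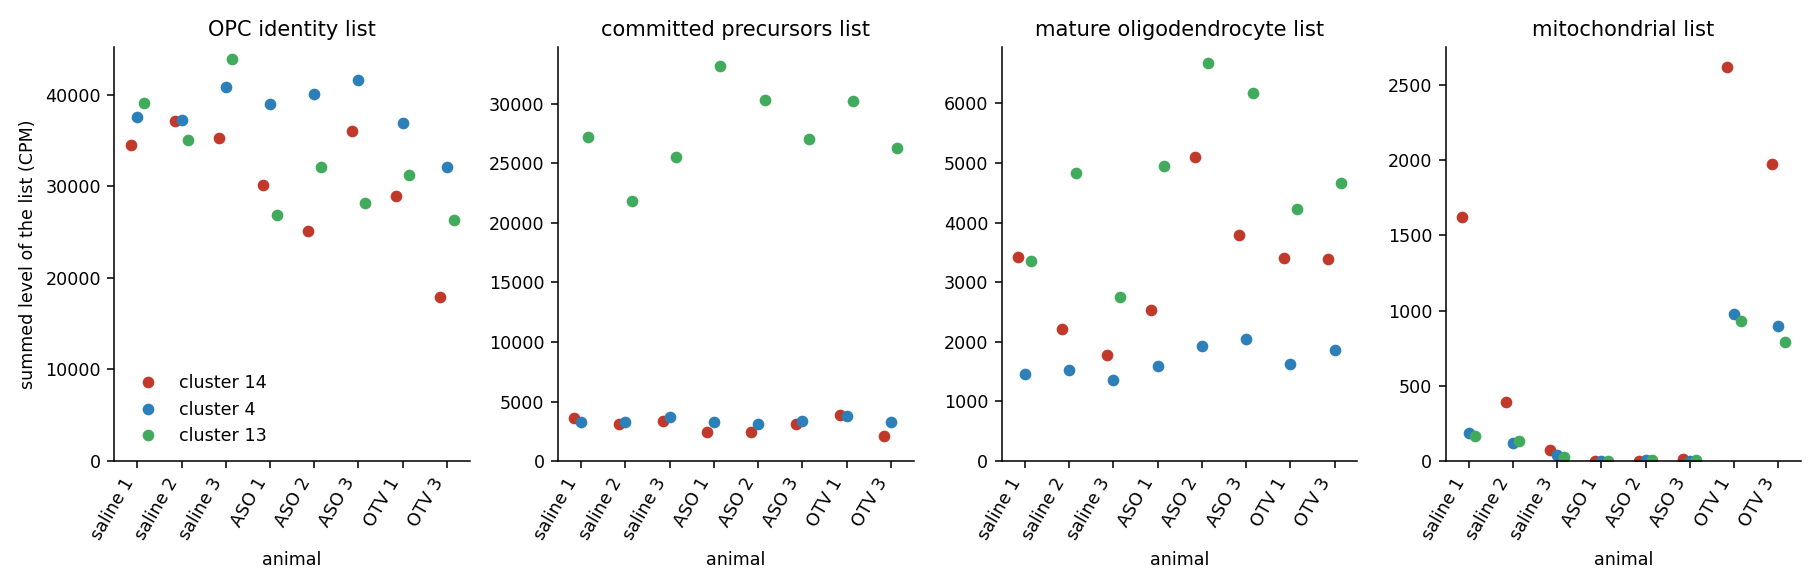
Summed level in CPM of 4 gene lists in OPC clusters 14, 4 and 13 of the 8 animals with cluster 14 nuclei. Cluster 14 lies near cluster 4 for committed precursor genes, above it for mature oligodendrocyte genes in every animal, and above it for mitochondrial genes in 6 of the 8. For mitochondrial genes, 1 of these 6, ASO 3, is below the level of 3 UMIs.

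At 1000 UMIs per nucleus, MOG was found in 11.2% of cluster 14 (exact 95% interval 7.75 to 15.4), 3.42% of cluster 4 and 58.2% of oligodendrocytes. Cells that should lack the myelin genes also gave such UMIs: MOG was found in 6.25% of myeloid nuclei, 3.47% of astrocytes and 7.25% of cluster 12, an astrocyte cluster with a low median of 1935 UMIs. MAG was found in 12.97% of myeloid nuclei and 7.62% of cluster 12 against 11.2% of cluster 14, and RNF220 in 12.97% and 19.0% against 16.7%. ST18 was found in 5.92% and 8.92% against 8.71%, and MOBP, a myelin protein, in 4.14% and 6.69% against 4.88%. As pooled, the shares of these 4 genes in cluster 14 were thus no higher than in at least 1 of these populations. Whether the nuclei of cluster 14 expressed these genes themselves was not tested. Over animals with at least 10 nuclei of cluster 14 and of the population named, the ranges of all 4 overlapped. The highest animal share of each lay in cluster 14 rather than in these populations. RNF220 ran from 4.55 to 31.1% in cluster 14, from 4.49 to 22.5% in myeloid nuclei and from 6.06 to 20.2% in cluster 12. MOBP ran from 0 to 11.7%, from 1.53 to 6.71% and from 0 to 3.03%. OPALIN was found in 7.67% of cluster 14, 4.56% of myeloid nuclei and 3.35% of cluster 12. These shares pool nuclei of animals that take unequal parts in each population. Over the same animals as the ranges above, OPALIN ran from 0 to 15.4% in cluster 14 and from 2.42 to 5.80% in myeloid nuclei. In cluster 12 it ran from 1.89 to 6.25%. MOG ran from 0 to 14.3% in cluster 14, from 2.80 to 10.2% in myeloid nuclei and from 4.55 to 9.65% in cluster 12. The ranges of OPALIN and MOG overlap, so neither gene is read as above both. All these ranges leave out OTV replicate 3, which held 264 of the 538 nuclei of cluster 12.

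A shallow astrocyte cluster also held more oligodendrocyte RNA than a deeper cluster of its cell type. Astrocyte cluster 12 exceeded the deeper astrocyte cluster 6 in each of the 6 animals compared. The mature oligodendrocyte list stood at 1635 CPM in cluster 12 against 960 in cluster 6 of saline replicate 2, at 1699 against 776 in saline replicate 3, at 1905 against 1445 in ASO replicate 1, at 2637 against 1103 in ASO replicate 3, at 2817 against 1413 in OTV replicate 1, and at 2648 against 1486 in OTV replicate 3. Shallow nuclei within cluster 4 allowed a further comparison in 2 animals, though not at equal depth. Their median was 2617.5 UMIs in ASO replicate 3 and 2046 in OTV replicate 3, against 1427.5 and 1126.5 in cluster 14. In ASO replicate 3, 14 nuclei of cluster 4 with at most 3000 UMIs had 1938 CPM of the list against 3786 in cluster 14, and 44660 CPM of the OPC identity list against 36023. In OTV replicate 3, 278 such nuclei had 2511 CPM against 3388 in the 6 nuclei of cluster 14, and 28354 CPM of the OPC identity list against 17928. Set against all of cluster 4, the shallow nuclei were not higher in the mature oligodendrocyte list in ASO replicate 3, at 1938 against 2053 CPM. They were higher in OTV replicate 2, at 2283 against 1362, and in OTV replicate 3, at 2511 against 1856. The part of free oligodendrocyte RNA in these values was not tested.

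**Figure D3:**
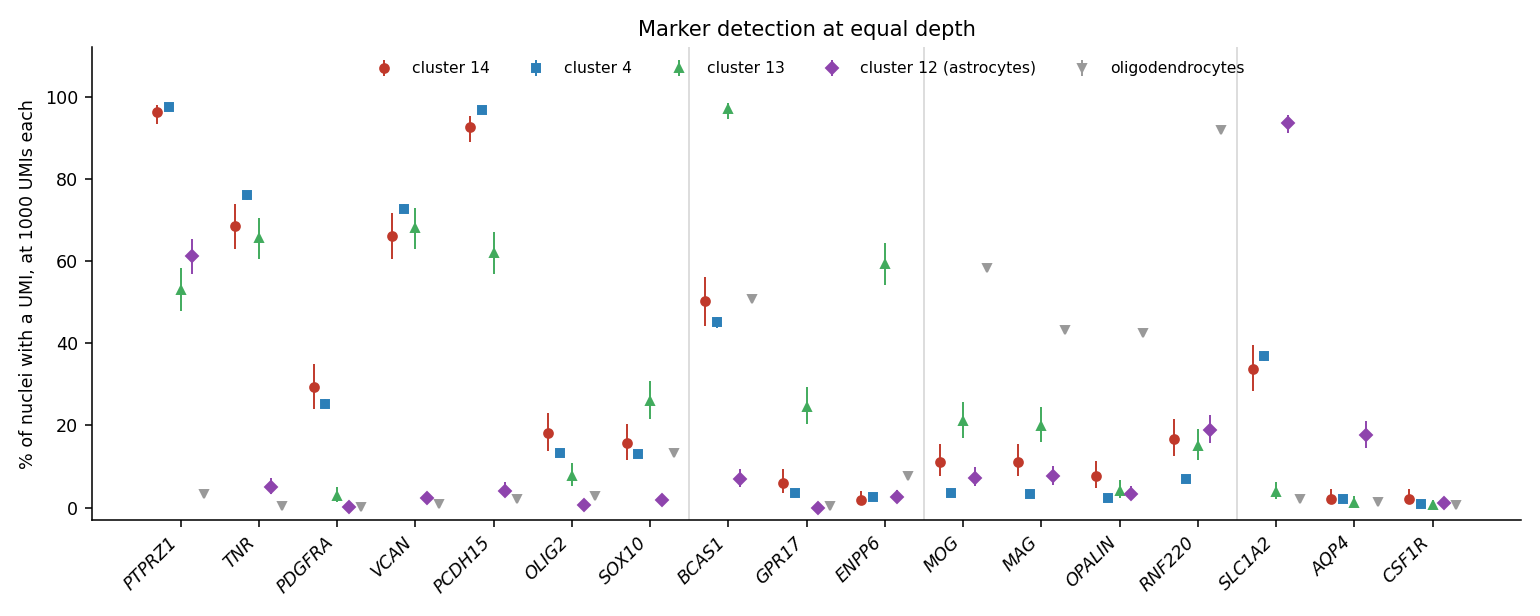
Percentage of nuclei with at least 1 UMI of each gene after thinning every nucleus to 1000 UMIs, with exact binomial 95% intervals, in OPC clusters 14, 4 and 13, astrocyte cluster 12 and oligodendrocytes. Grey lines divide OPC, committed precursor, mature oligodendrocyte and other genes; cluster 14 follows cluster 4 for OPC genes and lies near cluster 12 for RNF220.

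The leading genes against cluster 4 showed the same pattern. Of 3650 genes with a symbol and at least 50 CPM in cluster 14, 147 were higher than in cluster 4 in every animal. Of the 20 with the largest median ratio, 16 (80.0%) were more abundant in oligodendrocytes than in cluster 14, against 40.3% of the 3650 genes. Beside the list members named above, they included CRYAB, a small heat shock protein, with a ratio of 1.58, SEPTIN4, a septin of myelin, with 1.505, ANLN, which is a cell division gene and also a gene of myelinating oligodendrocytes, with 1.49, and TMC7 with 2.00. The 4 that were not higher in oligodendrocytes were HINT1, a nucleotide-binding hydrolase, with 2.28, APOE with 1.73, RNASEK with 1.35 and PI4KB, a lipid kinase, with 1.32. HINT1 had 38 UMIs in the cluster and stood at 139, 59.99 and 44.4 CPM in saline, 123 and 95.2 in ASO replicates 1 and 3 and 40.2 in OTV replicate 1.

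Of 3416 genes with a symbol and at least 50 CPM in cluster 4, 201 were lower in cluster 14 in every animal. The 10 lowest were of low count and included RAD51B, a DNA repair gene, with a median of −3.32, CNTN6, a neural adhesion protein, with −1.13, and TENM1, a teneurin, with −1.06. RAD51B had 0 UMIs in 3 of the 6 animals and 27 UMIs in the cluster, so its ratio depends on the pseudocount. The summed levels of glutamate and GABA receptor genes and of ion channel genes of precursors were lower than in cluster 4. The 14 glutamate and GABA receptor genes summed to 7882 CPM against 10744 in cluster 4, and 4 of 11 members were lower in every animal: the AMPA receptor subunit GRIA1, the kainate receptor subunit GRIK2 and the metabotropic receptors GRM5 and GRM7. None of the 11 had a median above cluster 4, though the sum was higher in saline replicate 1, at 11017 against 10670 CPM. The ion channel list summed to 5445 against 7527 CPM and was lower in each of the 6 animals, while 4 of its 11 members had a median above cluster 4. Nuclei of cluster 4 with at most 3000 UMIs, 278 of 325 from OTV replicate 3, had 9086 CPM of the receptor list and 7079 of the ion channel list. KCND2, a potassium channel, was lower in every animal with a median of −0.49, as were the sodium channel SCN3A with −0.67 and the calcium-activated potassium channel KCNMA1 with −0.23. For scale, 3.38% of all genes were lower in every animal, and 48.7% had a median above cluster 4.

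**Figure D4:**
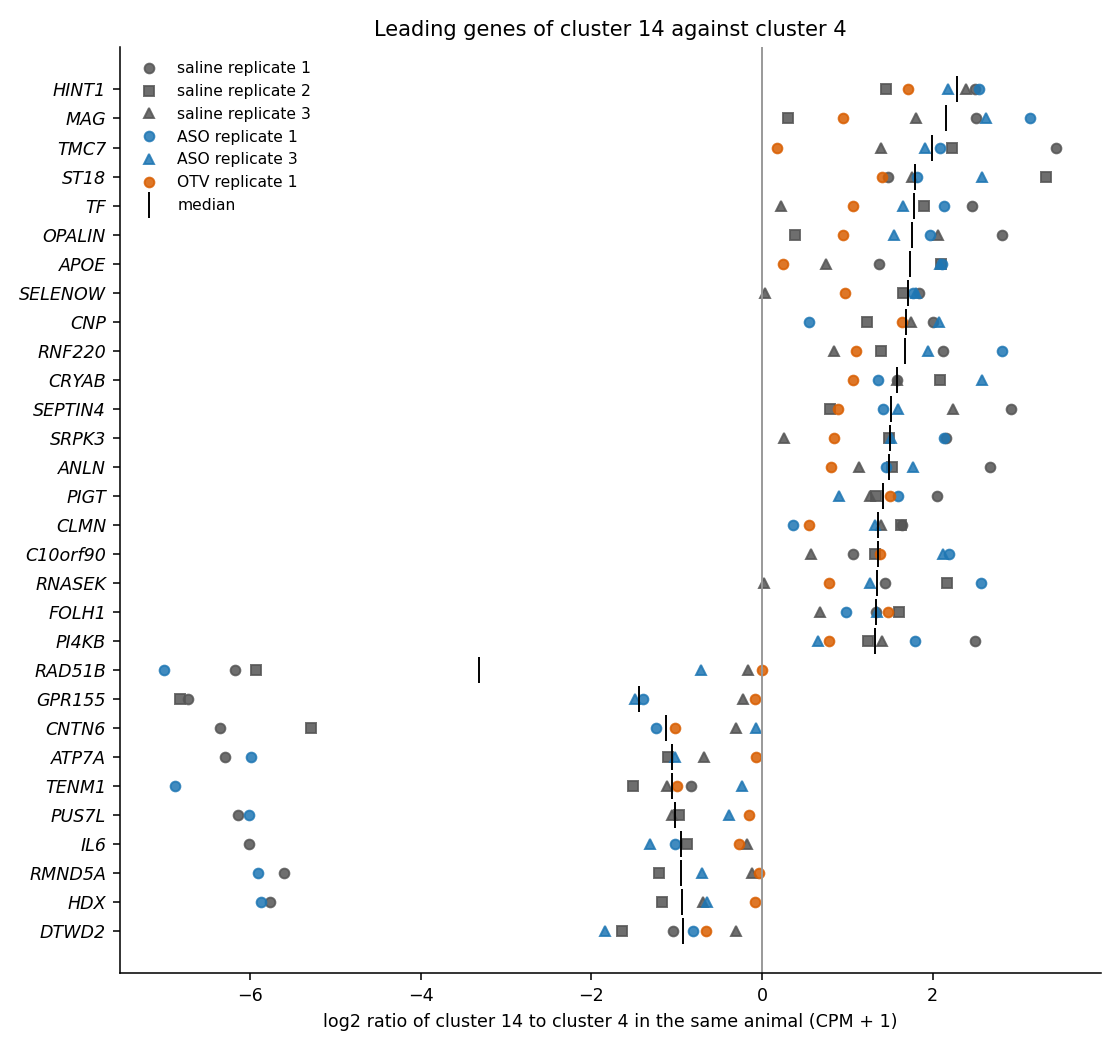
Log2 ratio of cluster 14 to cluster 4 in the same animal (CPM plus 1) for the 20 genes highest above and the 10 lowest below cluster 4; each point is 1 of the 6 animals with at least 10 nuclei and the bar is the median. Points near −6 belong to genes with 0 UMIs in cluster 14 of that animal.

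Mitochondrial transcripts varied more between animals than any list above. The 13 genes encoded by mitochondrial DNA summed to 1620, 390 and 74.0 CPM in cluster 14 of saline animals, 0, 0 and 15.9 in ASO animals, and 2619 and 1976 in OTV replicates 1 and 3. In cluster 4 they stood at 188, 118 and 44.2, at 3.11, 6.42 and 3.01, and at 978 and 895. Cluster 14 was above cluster 4 in the saline and OTV animals and, as measured, in ASO replicate 3. There its 15.9 CPM is below the 23.8 CPM of 3 UMIs. The shallow astrocyte cluster 12 was likewise above astrocyte cluster 6 in each of the 6 animals compared, as with 457 against 222 CPM in saline replicate 2. In ASO replicates 1 and 3 its 30.2 and 11.6 CPM came from 16 and 53 nuclei and lie near the floor. The values were lowest in the ASO animals and highest in the OTV animals in both clusters, but at a limit of 3 UMIs the 0 of ASO replicates 1 and 2 in cluster 14 allows up to 123 and 273 CPM. COX3, a subunit of cytochrome oxidase, followed the sum with 417, 120 and 22.2 CPM in saline, 0, 0 and 7.94 in ASO, and 969 and 706 in OTV.

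Markers of astrocytes and myeloid cells were low in cluster 14. The astrocyte list stood at 1054 CPM against 980 in cluster 4 and 15487 in astrocytes, and the microglia and macrophage list at 152 against 74.3 and 7488 in myeloid nuclei. By animal the microglia and macrophage list ranged from 0 to 282 CPM. The neuron list was lower than in cluster 4 in each of the 6 animals, at 2087 against 2651 CPM, with 5350 in neurons and 264 in oligodendrocytes. Of 8 fibroblast genes, 7 had 0 UMIs. The endothelial list stood at 26.4 CPM and the T cell list at 28.0. Within animals, the list for injury-associated glia was higher than in cluster 4 in 5 of 6 (median log2 ratio 0.60), as were the immediate early list (0.35) and the interferon and antigen presentation list (0.28). Only 1 of the 3 members of the injury list with at least 10 UMIs had a median above cluster 4. This was SPP1, a secreted phosphoprotein, at 165 CPM in cluster 14, 62.3 in cluster 4 and 373 in oligodendrocytes. The interferon and antigen presentation list was lower when all nuclei were pooled, at 217 against 235 CPM, where OTV replicate 1 holds 35.9% of the nuclei. The p53 target list was higher in 2 of 6 (−0.24). Of all members of these 4 lists, B2M, the light chain of class I antigen molecules, was the only one higher in every animal, with a median ratio of 0.97.

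Much of the cell division RNA in the cluster came from 1 nucleus of ASO replicate 1, which held 87 of the 179 UMIs (48.6%) of the 17 list genes in the files. After leaving out ANLN and DIAPH3, which oligodendrocytes also express and which were dropped after their values were seen, the remaining 15 genes of the list had 102 UMIs in the cluster, of which 83 (81.4%) lay in this nucleus. It had 5871 UMIs, the most in the cluster, a doublet score of 4.52e-05, and 11 UMIs of MKI67, 10 of TOP2A and 34 of CENPF, a kinetochore protein. Of OPC markers it had 7 UMIs of PTPRZ1, 2 each of OLIG2 and PCDH15, 1 of PDGFRA and 0 of TNR. In 271 of the 287 nuclei (94.4%) no such UMI was found, and the next highest nucleus had 3.

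MALAT1, the target of both agents, made up 5.55%, 6.78% and 3.95% of the UMIs of cluster 14 in saline replicates 1, 2 and 3. It made up 4.51%, 4.15% and 5.68% in ASO replicates and 3.00% and 3.98% in OTV replicates 1 and 3. The ASO animals lay within the range of the saline animals, and OTV replicate 1 lay below all of them. The Wilson 95% intervals were 5.25% to 5.86% in saline replicate 1 and 3.85% to 4.06% in saline replicate 3, so the saline animals differed by more than counting error. Over the 6 animals with at least 10 nuclei the mean was 5.43% ± 1.42 (SD, n = 3) in saline and 5.09% ± 0.826 (SD, n = 2) in ASO, with the value of 1 animal in OTV. Over the 3 groups, two-sided exact permutation gave p = 0.4, where 0.0167 is the smallest p that 60 splits allow. Between saline and ASO the exact permutation p was 0.9, where 0.1 is the smallest possible.

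In edgeR's quasi-likelihood test, MALAT1 in cluster 14 changed by −0.07 on the log2 scale from saline to ASO (SE 0.26, adjusted p = 0.998). In cluster 4, with all 9 animals, the change was −0.22 (adjusted p = 0.691), and the difference between the clusters was 0.11 (SE 0.41, adjusted p = 1). No difference in MALAT1 response between the clusters was detectable with these animals. OTV could be compared only with the minimum lowered to 5 nuclei, which brings in ASO replicate 2 and OTV replicate 3. MALAT1 then changed by −0.67 on the log2 scale from saline to OTV (SE 0.31, adjusted p = 0.488 by edgeR), with a share lower in 1 of 2 OTV animals than in all saline animals. In cluster 4 it was −0.48 (SE 0.14, adjusted p = 0.0297). Within an animal, the MALAT1 share of cluster 14 was 1.17 to 1.59 times that of cluster 4 in 7 animals and 0.997 times in OTV replicate 1. At 1000 UMIs the mean was 44.6 MALAT1 UMIs per nucleus in cluster 14, 36.8 in cluster 4 and 50.7 in oligodendrocytes. No nucleus of cluster 14 was without MALAT1.

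**Figure D5:**
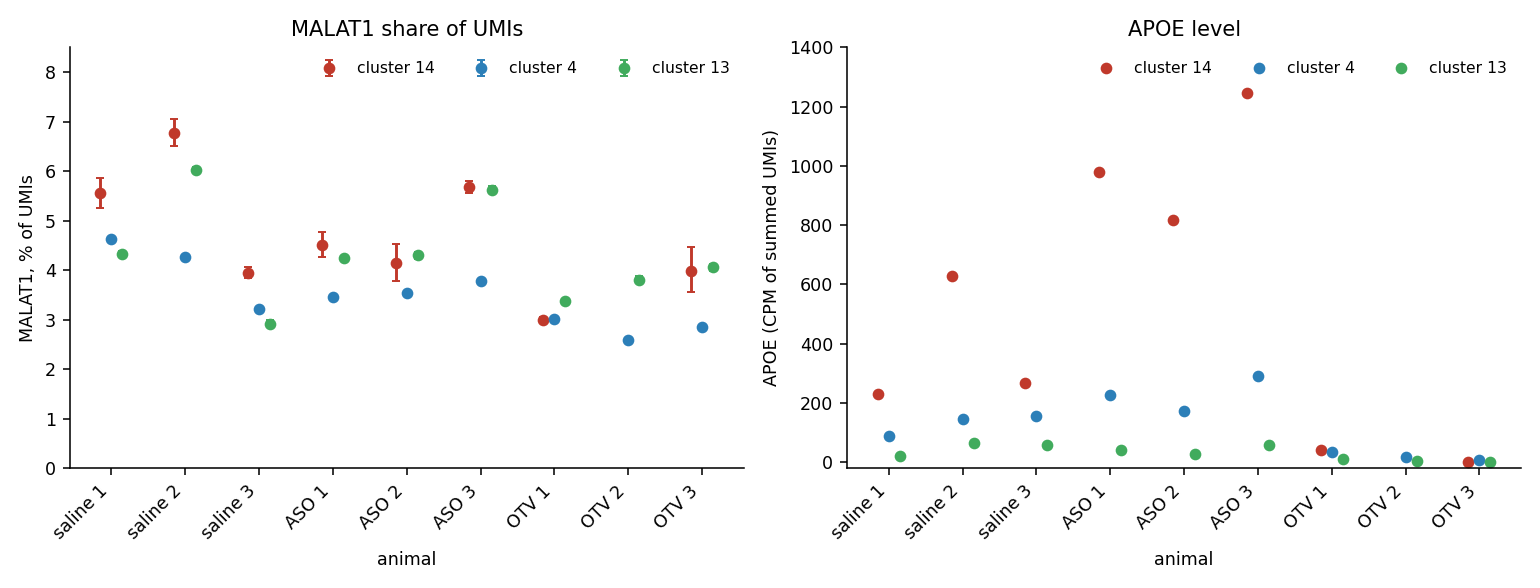
Left, MALAT1 as a percentage of summed UMIs in OPC clusters 14, 4 and 13 of each animal, with Wilson 95% intervals; the ASO animals lie within the saline range in cluster 14. Right, APOE in CPM in the same clusters; in cluster 14 it lies between 818 and 1246 in ASO, between 231 and 630 in saline, and at 40.2 and 0 in OTV 1 and OTV 3.

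Between ASO and saline, 1 of 3261 genes tested in cluster 14 was called at an adjusted p under 0.05 by edgeR's quasi-likelihood test (0.0307%), and 132 had an unadjusted p under 0.05. The called feature has an Ensembl identifier only, ENSMFAG00000003811. It stood at 324, 240 and 59.2 CPM in saline and at 490 and 881 in ASO replicates 1 and 3, with no overlap, and at 169 in OTV replicate 1. Its log2 fold change was 2.33 (SE 0.46, adjusted p = 0.00123 by edgeR). The call was lost without saline replicate 2, when edgeR called 0 genes (171 at an unadjusted p under 0.05). It was also lost with no filter on low counts and with DESeq2's Wald test. No member of the 20 lists and none of the mitochondrial genes was called. The OPC identity list had 17 members tested, with a median log2 fold change of −0.07 against −0.01 over all genes. The mature oligodendrocyte list had 12 tested with a median of 0.77, and 2 of them had an unadjusted p under 0.05. The mitochondrial list had 7 tested with a median of −4.82, and 5 had an unadjusted p under 0.05. Its sum was 0 and 15.9 CPM in ASO replicates 1 and 3, below the 123 and 23.8 CPM of 3 UMIs. The size of that change is therefore set by the floor. The filter follows the smallest group, here 1 OTV animal, so a gene could enter the test through 1 animal.

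APOE, the main lipid carrier of brain lipoproteins, separated all 3 groups by its level in cluster 14. It stood at 231, 630 and 267 CPM in saline, at 981, 818 and 1246 in ASO, and at 40.2 and 0 in OTV replicates 1 and 3. No groups overlapped as measured, but OTV replicate 3 has 7084 UMIs in the cluster, so its 0 allows up to 423 CPM at a limit of 3 UMIs, which is within the saline range and below the ASO values. With a minimum of 10 nuclei the ASO minus saline log2 fold change was 1.65 (SE 0.40, adjusted p = 0.0589 by edgeR), just short of the threshold. With a minimum of 5 nuclei it was 1.70 (SE 0.37, adjusted p = 0.00596), where 0.297% of 673 genes were called. OTV against saline gave −3.16 (SE 0.59, adjusted p = 0.000361) and OTV against ASO −4.86 (SE 0.57, adjusted p = 2.64e-09), both with 2 OTV animals. In cluster 4, APOE stood at 89.1, 146 and 158 CPM in saline, 227, 173 and 292 in ASO, and 33.9, 16.4 and 6.36 in OTV. The order of the groups was the same there, at a lower level in each saline and ASO animal. The ASO minus saline log2 fold change in cluster 4 was 0.77 (SE 0.41, adjusted p = 0.639 by edgeR). The change differed between clusters 14 and 4 by 0.76 (SE 0.50, adjusted p = 0.953 by edgeR's interaction test). In astrocytes, which make APOE, it stood at 762, 851 and 509 CPM in saline, 884, 813 and 537 in ASO, and 128, 97.6 and 57.5 in OTV. At 1000 UMIs, the share of nuclei with APOE was taken in animals with at least 10 nuclei of cluster 14 and of the population named. It ran by animal from 3.88 to 56.0% in cluster 14 and from 12.9 to 55.6% in astrocytes. In the shallow astrocyte cluster 12 it ran from 14.9 to 78.8%, and these shares are not ranked. OTV replicate 3, with 0 UMIs of APOE in cluster 14, is outside these ranges. The part of astrocyte RNA in the cluster 14 values was not tested.

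OTV against saline with a minimum of 5 nuclei gave 9 called genes of 673 (1.34%), of which 5 were higher (0.743%) and 4 lower (0.594%). This contrast rests on OTV replicate 1 with 103 nuclei and OTV replicate 3 with 6, and all genes named here had no overlap between the groups. COX3 was higher in OTV, by 3.06 on the log2 scale (adjusted p = 0.00303 by edgeR, SE 0.61). TMTC2 stood at 644 and 1694 CPM in OTV against 150 to 296 in saline (1.82, SE 0.43, adjusted p = 0.00826). NKAIN2, a sodium pump partner, stood at 559 and 1553 CPM against 90.0 to 324 (1.87, SE 0.47, adjusted p = 0.0139). UBL5, a ubiquitin-like splicing factor, was lower, at 105 and 0 CPM, the latter with the same limit of 423, against 278 to 600 (−2.16, SE 0.54, adjusted p = 0.0134).

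Cluster 4 of the same libraries, with 9 animals, gave the same direction for each of these genes. There, edgeR's OTV minus saline log2 fold change was −2.57 for APOE (adjusted p = 0.00832), 3.25 for COX3 (adjusted p = 0.00272), 1.37 for TMTC2 (adjusted p = 0.000163), 1.57 for NKAIN2 (adjusted p = 0.00535) and −1.45 for UBL5 (adjusted p = 0.000219). Called genes made up 20.2% of 14617 in cluster 4 for this contrast. Between OTV and ASO, 4 genes were called in cluster 14 (0.594%). APOE and 2 features without a symbol were lower, and COX3 was higher by 6.77 (SE 0.96, adjusted p = 3.65e-05), against ASO values of 0, 0 and 7.94 CPM.

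The difference in ASO response between cluster 14 and cluster 4 was called for 1 of 15047 genes (0.00665%), with 419 at an unadjusted p under 0.05. That gene was CENPF, through the single nucleus described above. Against cluster 13, 5 of 9164 genes were called (0.0546%), with 423 at an unadjusted p under 0.05. Among them was PLPPR1, a membrane protein of neurite growth, which stood at 324, 210 and 437 CPM in saline and 449 and 540 in ASO replicates 1 and 3 of cluster 14, and at 198, 192 and 191 against 23.5 and 31.2 in cluster 13. MTSS1, a membrane-bending protein, stood at 648, 420 and 718 against 695 and 556 in cluster 14, and at 363, 265 and 414 against 35.7 and 88.4 in cluster 13. For both genes the ASO values of cluster 13 lay below all its saline values, while those of cluster 14 did not.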

How the data were processed

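Single nuclei of the thalamus of 9 animals were analysed from 1 matrix of raw UMI counts as deposited by the authors (29128 features, 14893 with a gene symbol, of which 14048 are in the RefSeq table of the species) and a table of nuclei with the authors' cell types, cluster numbers and doublet score. The submitters' processing notes name Cell Ranger 6.1.2, Seurat 4 and GRCh38.p13, with no role given. The smallest deposited nucleus holds 1018 UMIs. The doublet score is as deposited by the authors; its caller is not named in the sources read. No label links animals of different groups or gives a batch.

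Cluster 14 was taken from the cluster and cell type columns. UMI counts were summed per animal, and animals with at least 10 nuclei (6 of 9) were compared with edgeR 4.0.16 in R 4.3.3 (TMM factors, filterByExpr, robust quasi-likelihood fits of all groups, Benjamini-Hochberg adjustment over all genes tested). The 1 OTV animal that reaches this minimum leaves its group without replicates, so contrasts with OTV used a minimum of 5 nuclei (8 animals). An SE is the absolute log2 fold change over the square root of F. The difference in response between clusters was tested as an interaction with animal as a block. Shares of MALAT1 were compared by exact permutation over animals. The fits were tested on simulated counts. Shares of nuclei with a UMI were computed after thinning each nucleus to 1000 UMIs, and intervals cover counting error only. Alternatives were DESeq2 1.42.0, its size factors, no filter, other minimums, nuclei at or below the cluster's median doublet score and leaving out each animal.

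Leading genes are those with a symbol with the largest median ratio to cluster 4 or 13 within an animal (at least 50 CPM, same direction in all 6 animals). Treatment genes are the called genes with a symbol and no overlap between groups. Genes outside these rules and lists, such as MYT1, were named after their values were seen. The members, gene lists and tests were chosen with earlier results of these data known. 1 gene of the mature oligodendrocyte list is not reported here but stays in its sums and counts. No sequences are shown, since none of the tables used here holds them.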

Additional observations from a re-analysis of the deposited data

Results flagged for a closer look

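The ASO minus saline change of CENPF differed between cluster 14 and cluster 4 by 12.19 on the log2 scale (adjusted p = 0.000122, edgeR interaction test with animal as a block). In cluster 14 it stood at 0 CPM in the saline animals and ASO replicate 3 and at 1430 in ASO replicate 1, where 34 of its 35 UMIs lay in 1 nucleus. The call was lost under 6 of 12 alternatives. Of the 12, the fits with the 2 groups only and without OTV replicate 1 are the same, and both kept the call. edgeR called 0 genes in this comparison without ASO replicate 1 (453 at an unadjusted p under 0.05), without saline replicate 3 (121), with DESeq2's size factors (501), with a minimum of 5 nuclei (479) and with nuclei at or below the median doublet score (48), and DESeq2's Wald test called 0 (126). Without ASO replicate 1 the ASO group is 1 animal, and with the low doublet scores the saline group is.

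The change differed between cluster 14 and cluster 13 for 5 features by the same test. The difference was 3.30 for PLPPR1 (adjusted p = 0.00162), 2.52 for MTSS1 (adjusted p = 0.0343) and 2.41 for APOD, a lipocalin (adjusted p = 0.0496). It was 5.04 for ENSMFAG00000030908 (adjusted p = 0.00162) and −2.56 for ENSMFAG00000030544 (adjusted p = 0.0343). APOD stood at 463, 420 and 156 CPM in saline and at 776 and 500 in ASO replicates 1 and 3 of cluster 14, against 381, 324 and 220 and then 89.8 and 125 in cluster 13. None of the 5 was called between ASO and saline within cluster 14 alone.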

How the results depend on the processing

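The number of genes called between ASO and saline in cluster 14 was 1. It was 4 with DESeq2's size factors and 2 with a minimum of 5 nuclei. It was 2 with the animals of the 2 groups only, the same fit as without OTV replicate 1. It was 0 with no filter (380 at an unadjusted p under 0.05 by edgeR), 0 with DESeq2's Wald test (46) and 0 with nuclei at or below the cluster's median doublet score (47 by edgeR). These 191 nuclei leave 4 animals with at least 10, with saline replicate 2 alone in its group. Leaving out each animal gave 0 to 8: 0 without saline replicate 2 (171 by edgeR), 2 without saline replicate 1 or OTV replicate 1, 3 without ASO replicate 1 and 8 without ASO replicate 3, where 1032 genes were tested. A group of 1 animal, as saline or ASO in these fits, is assumed to vary like the others. The cause of these shifts was not tested. A minimum of 20 nuclei leaves 1 animal in each group and gives no test. The MALAT1 log2 fold change ran from −0.15 to 0.19 and its difference from cluster 4 from −0.34 to 0.37 as each animal was left out, so neither has a settled sign. With the 191 nuclei and 1 saline animal they were −0.47 and −0.23. Over the alternatives the adjusted p was 0.956 to 1 for the fold change and 0.925 to 1 for the difference. Leaving out each animal in turn can move a median ratio only to a neighbouring value. The ratio of the OPC identity list to cluster 4 then stayed at −0.21, and that of the mature oligodendrocyte list at 0.67 to 0.88. With the 191 nuclei, over 4 animals, they were −0.21 and 0.47. A comparison with nuclei of cluster 4 with at most 3000 UMIs was possible in ASO replicate 3 only among the 6 animals. It was chosen after seeing the data, and these nuclei were still deeper than cluster 14. The ratios were then −0.31 and 0.97. With neither OTV replicate 1 nor ASO replicate 3, which hold most of the nuclei, they were −0.17 and 0.60, and without the nucleus rich in cell division RNA −0.16 and 0.91, both also chosen after seeing the data. Of the 20 leading genes above cluster 4, 8 were shared with those of the 191 nuclei. No paired analysis was possible because the labels give no number that links animals of different groups. The 607179 UMIs of the cluster limit all values of low genes.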
